A study of Mus musculus with 2 samples.

Results

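Small RNA host genes were described here in mouse calf muscle: 26 of the 55536 named genes in the tables. A gene was a member if its symbol began with Snhg and a number, began with Mir and ended in hg, or was Gas5. The symbols gave 16 small nucleolar RNA (snoRNA) hosts and 10 microRNA hosts. The series holds 1 group of 2 total RNA libraries, labelled biological replicates 1 and 2, from the gastrocnemius of female B6CASTF1/J mice, an F1 hybrid strain, at an age of 10 days. Each library was made from 300 ng of RNA after ribosomal RNA was reduced, with ERCC spike-in RNAs added. The labels name no treatment or mutation, and they do not say whether each library came from 1 animal or from pooled animals. With 1 group there is no contrast to test: values are given for each library and as a mean with SD (n = 2), and a ratio between libraries sets 1 library against 1 other.

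Host genes carry small RNAs inside their own transcripts. Most snoRNAs lie in introns, are trimmed from the excised intron, and then guide the chemical modification or the cutting of ribosomal RNA, with box C/D snoRNAs guiding methylation and H/ACA snoRNAs guiding pseudouridylation. The spliced exons of Snhg genes and of Gas5 are left over as long noncoding RNAs, several of which are known to be degraded by nonsense-mediated decay when ribosomes read them. MicroRNA hosts give primary transcripts from which Drosha cuts a hairpin and Dicer a mature microRNA, which directs Argonaute to messenger RNAs. In skeletal muscle the microRNAs of the mir-1, mir-133 and mir-206 families are the best known.

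The tables hold 35925081 expected counts in replicate 1 and 39969380 in replicate 2, of which spike-ins took 0.720% and 0.798%. All 5 skeletal muscle fibre markers were detected, with a summed TPM (the deposited level per transcript length) of 62448 and 72025. The libraries differed in what else they held: the 4 bone and cartilage markers (Ibsp, Bglap, Spp1, Mmp13) summed to 240 TPM in replicate 1 and 0.630 in replicate 2, where Ibsp and Bglap were at 0. The 5 fibroblast markers summed to 5478 and 3443 TPM, but most of that difference was Col1a1, at 3542 and 1887. Col3a1 had 1617 and 1277 TPM and Dcn 255 and 230. With the scaling described below, the 5 had a median log2 ratio of -0.12. The 4 leukocyte markers summed to 42.5 and 29.3 TPM, and the 4 neuron markers to 4.13 and 1.70, with Chat at 0 in both. The endothelial markers (161 and 142 TPM), smooth muscle and pericyte markers (353 and 426) and erythroid markers (1253 and 969) differed less in sum. The part of this difference in the host gene ratios below was not tested. In a bulk sample, fewer cells of a type and less RNA per cell cannot be told apart.

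The microRNAs carried by the microRNA hosts that the results turn on are shown to identify what each locus would produce, and because several share the seed (bases 2 to 8, in capitals) by which a microRNA recognises its targets. Sequences are from RefSeq, build GRCm38.p6, written 5′ to 3′. None of these mature microRNAs was measured: the libraries are total RNA, and the values are those of host transcripts. Mir22hg carries 1 microRNA, on the plus strand at chr11:75463772-75463793.
mmu-miR-22-3p: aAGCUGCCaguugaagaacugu
Mir17hg, on the plus strand of chromosome 14, carries the 6 microRNAs of the mir-17 to mir-92 cluster.
mmu-miR-17-5p: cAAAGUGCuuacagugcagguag
mmu-miR-20a-5p: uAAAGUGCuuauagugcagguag
mmu-miR-18a-5p: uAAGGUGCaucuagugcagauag
mmu-miR-19a-3p: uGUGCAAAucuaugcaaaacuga
mmu-miR-19b-3p: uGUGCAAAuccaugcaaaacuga
mmu-miR-92a-3p: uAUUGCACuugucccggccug
Of these, miR-17-5p and miR-20a-5p share the seed AAAGUGC, and miR-19a-3p and miR-19b-3p share GUGCAAA. Mir99ahg, on the plus strand of chromosome 16, carries 3 microRNAs with 3 different seeds.
mmu-miR-99a-5p: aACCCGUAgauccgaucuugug
mmu-let-7c-5p: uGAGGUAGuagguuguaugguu
mmu-miR-125b-5p: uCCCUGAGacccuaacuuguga
Gm28653 is not a member by its symbol. It is given beside the muscle host because its span on the plus strand of chromosome 1 holds Mir206 and Mir133b.
mmu-miR-206-3p: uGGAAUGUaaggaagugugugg
mmu-miR-133b-3p: uUUGGUCCccuucaaccagcua

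The snoRNA hosts were the broader group and the microRNA hosts the more uneven one. At TPM 1 or more in both libraries, the limit used for detection, 11 of 16 snoRNA hosts and 3 of 10 microRNA hosts were detected, where 22.6% of all genes and 3.49% of 10155 annotated long noncoding genes passed the same limit. The median TPM was 5.08 over the snoRNA hosts and 0.328 over the microRNA hosts. Over the detected members only, the order turned, with medians of 9.04 for 11 snoRNA hosts and 27.0 for 3 microRNA hosts. Summed TPM was 159 and 107 for the snoRNA hosts (133 ± 37.0, SD, n = 2), or 0.0134% of the TPM of all genes. It was 77.2 and 52.1 for the microRNA hosts (64.6 ± 17.7), or 0.00655%. Gas5 alone gave 61.4 of the 159 TPM in replicate 1, and Mir133a-1hg and Mir22hg gave 35.3 and 31.0 of the 77.2.

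**Figure D1:**
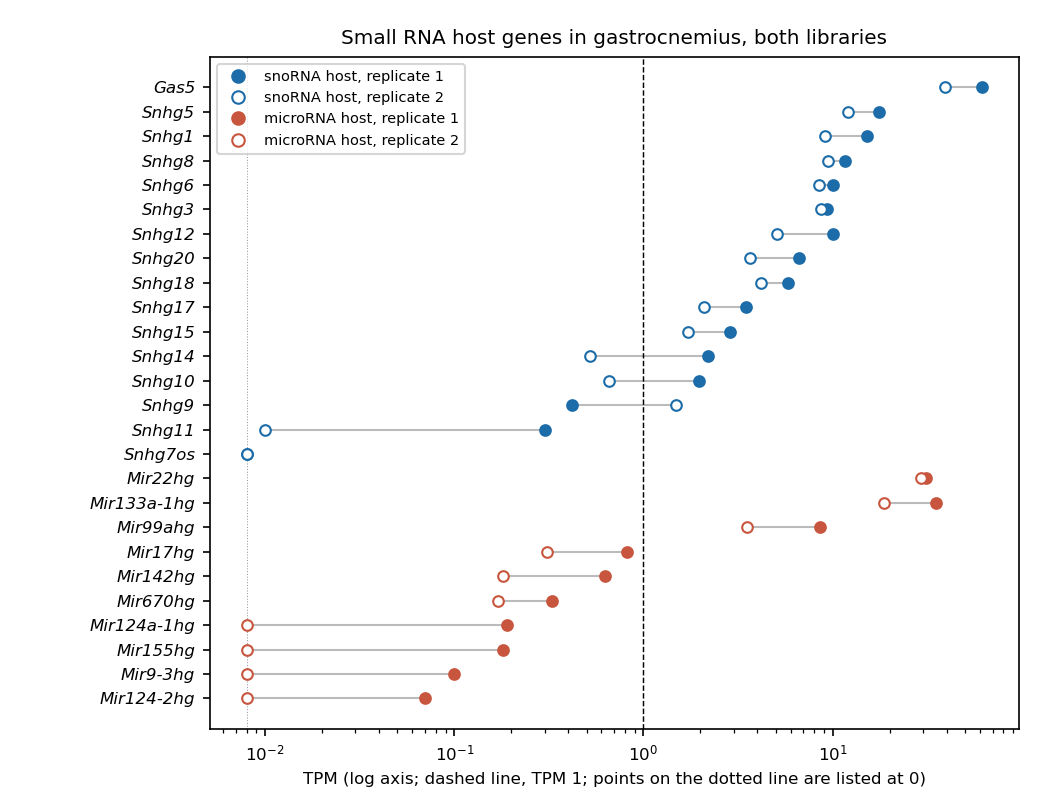
TPM (log axis) of the 26 host genes in replicate 1 (filled) and replicate 2 (open), with snoRNA hosts in blue and microRNA hosts in red; the dashed line is TPM 1. Gas5 leads the snoRNA hosts at 61.4 and 39.4 TPM, and Mir22hg, Mir133a-1hg and Mir99ahg stand apart from 7 microRNA hosts under TPM 1.

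Gas5 (ENSMUSG00000053332.13, chromosome 1, 161034422 to 161038539, plus strand, mm10) was the highest snoRNA host. It was first known for transcripts that accumulate when cells stop dividing, and its introns hold 10 annotated snoRNA genes, with overlapping entries for Snord80. Gas5 had TPM 61.4 and 39.4 (50.4 ± 15.6), from 1093 and 740 expected counts. The bounds that the authors' tables give for each TPM, 57.1 to 66.2 and 37.6 to 44.2, did not overlap. Zbtb37 overlaps Gas5 on the other strand, and the sources used here do not say whether counting used strand, so reads of the pair may not be told apart.

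Snhg5 and Snhg1 followed. Snhg5, which holds 2 snoRNAs, had TPM 17.5 and 12.1 (14.8 ± 3.79). Snhg1, also known as the U22 host gene after 1 of its 8 snoRNAs, had TPM 15.2 and 9.08 (12.1 ± 4.31). Replicate 1 was the higher library for both, with no overlap of the deposited bounds.

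Snhg8, Snhg6 and Snhg3 formed a tier whose neighbours lay within their spread. Snhg8, with 1 H/ACA snoRNA, had TPM 11.6 and 9.40 (10.5 ± 1.57). Snhg6, with 1 snoRNA, had TPM 10.1 and 8.47 (9.27 ± 1.12). Snhg3, the host of the U17 snoRNAs that act in processing of 18S ribosomal RNA, had TPM 9.38 and 8.70 (9.04 ± 0.481), the closest pair of values among the detected snoRNA hosts. For all 3 genes the deposited bounds of the 2 libraries overlapped. Snhg3 shares its strand with the overlapping Rcc1 (8.23 and 5.83 TPM), so the division of reads between them is uncertain.

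Snhg12 and Snhg20 differed more. Snhg12, which holds 5 annotated snoRNA genes with overlapping entries for Snora16a, had TPM 9.99 and 5.10 (7.54 ± 3.46). Snhg20, which holds a small Cajal body RNA (scaRNA, a guide for modification of spliceosomal RNA) in place of a snoRNA, had TPM 6.67 and 3.66 (5.17 ± 2.13). Both were higher in replicate 1, by more than the deposited bounds.

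The lowest detected snoRNA hosts were Snhg18, Snhg17 and Snhg15. Snhg18 had TPM 5.83 and 4.18 (5.0 ± 1.17). Snhg17, with 3 snoRNAs, had 3.50 and 2.09 (2.79 ± 0.997). Snhg15, with 1, had 2.86 and 1.72 (2.29 ± 0.806). Replicate 1 was again the higher. The bounds of Snhg17 and Snhg15 overlapped, and Snhg15 rested on 38.5 and 22.3 counts. Snhg18 has 1 annotated transcript of 1486 bases, so no division between transcripts enters its value.

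The other 5 snoRNA hosts were under TPM 1 in at least 1 library. Snhg14 is a long imprinted transcript known from neurons, where it runs antisense to Ube3a; it spans 667836 bases on chromosome 7 and holds 208 annotated snoRNAs. It had TPM 2.19 and 0.520, from 103 and 39 counts. Ube3a on the other strand stood at 43.0 and 45.6 TPM.

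Snhg10, the other scaRNA host, had TPM 1.96 and 0.660 from 19 and 9 counts. Snhg9 had 1 and 4 counts inside a locus where Rps2 on the other strand had 324 and 343 TPM. Snhg11, a neuronal gene, had 48 counts in replicate 1 and 2 in replicate 2, a ratio of 23.3 with a 95% counting interval of 6.11 to 198, which covers counting error only. Snhg7os, named as the opposite strand of another host, was the single member at 0 in both RSEM-format libraries. In those counts a 0 allows up to 0.0841 and 0.0757 CPM (3 counts of those assigned to named genes). In kallisto-format counts Snhg7os had 6.30 in replicate 1 and 0 in replicate 2. No annotated small RNA lies in it on its own strand.

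Among the microRNA hosts, Mir22hg and the muscle host Mir133a-1hg were the highest. In RSEM-format values both lay below Gas5 (mean TPM 50.4) and above Snhg5 (14.8), the next snoRNA host. Mir22hg (ENSMUSG00000085148.1, chromosome 11, 75461539 to 75466676) is the primary transcript of miR-22, a microRNA abundant in heart and skeletal muscle. It had TPM 31.0 and 29.3 (30.1 ± 1.20) from 1310 and 1383 counts, and its bounds (28.5 to 32.4 and 26.9 to 30.6) overlapped. It overlaps Tlcd2 on the same strand (6.0 and 7.74 TPM), so the division of reads between those genes is uncertain. Mir133a-1hg (ENSMUSG00000095438.1, chromosome 18, 10781723 to 10785883, minus strand) spans Mir133a-1 and Mir1a-2, microRNAs made in striated muscle. It had TPM 35.3 and 18.6 (27.0 ± 11.8) from 295 and 177 counts, so the order of these 2 hosts was opposite in the 2 libraries. It lies opposite Mib1, a ubiquitin ligase gene at 19.0 and 17.9 TPM, with the same limit on strand as for Gas5.

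Mir99ahg spans 537111 bases on chromosome 16 and has 17 annotated transcripts. It had TPM 8.54 and 3.54 (6.04 ± 3.54) from 388 and 177 counts, with bounds that did not overlap. Mir17hg, whose cluster is known for its role in dividing cells, had TPM 0.820 and 0.310 (0.565 ± 0.361) from 79 and 34 counts. It was the highest of the 7 that were not detected in RSEM-format values. In kallisto-format values Mir670hg had a mean TPM of 1.18 and Mir17hg 0.894.

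The remaining 6 microRNA hosts had at most 10 expected counts in either RSEM-format library, and up to 25.3 (Mir670hg, replicate 1) in the kallisto-format tables. They were Mir142hg and Mir155hg, whose microRNAs are known from blood and immune cells, Mir124a-1hg, Mir124-2hg and Mir9-3hg, whose microRNAs are known from the nervous system, and Mir670hg. In the RSEM-format table of replicate 2 each had at most 4 counts, and Mir124a-1hg, Mir155hg, Mir9-3hg and Mir124-2hg were at 0 there. Mir124a-1hg had 10 counts in replicate 1, Mir155hg and Mir670hg had 6, Mir9-3hg 5, Mir124-2hg 4 and Mir142hg 3, so all 6 had more counts in replicate 1. Ratios on so few counts are not read here.

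The muscle microRNA loci were read mainly through their hosts. Of 7 annotated precursors of the mir-1, mir-133 and mir-206 families, 6 were at 0 counts in both libraries. The exception was Mir133a-2 on chromosome 2, a 104-base precursor with 13 and 12 counts (92.2 and 74.8 TPM, a level that the short length makes large). It was at 0 in the kallisto-format table of replicate 1. Gm28653, which holds Mir206 and Mir133b at chromosome 1, 20669882 to 20684298, had TPM 10.9 and 6.63 (8.77 ± 3.02) from 1180 and 850 counts, below Mir133a-1hg in both libraries.

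A symbol rule misses hosts that carry another name in the annotation. Of 33 mouse genes in RefSeq whose symbols meet the rule, 8 were not members here, and 3 of those were found under another symbol through RefSeq synonyms. They were 3110039I08Rik (Mir100hg), at 27.6 and 12.6 TPM, 1810032O08Rik (Snhg16), at 5.19 and 2.33, and 4631405K08Rik (Mir205hg), at 0. The first would have stood beside Mir22hg and Mir133a-1hg.

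Between the libraries the hosts were mostly lower in replicate 2. Ratios were scaled by the trimmed mean of M values (TMM), a factor for each library taken from the bulk of the genes. Genes averaging 20 counts or more were kept, 15198 in all, and their median log2 ratio was 0.00; 13 snoRNA hosts and 4 microRNA hosts were among them. All 13 of these snoRNA hosts were lower in replicate 2, with a median log2 ratio of -0.64 and a range of -4.24 to -0.05. So were 3 of 4 microRNA hosts, with a median of -0.89. By library or spike-in totals it was 4 of 4, but those scalings put 75.9% and 89.9% of all genes lower. The share of genes lower in replicate 2 at any size was 50.6% over all genes and 63.4% over 673 long noncoding genes, whose median was -0.17 and whose central 80% lay between -1.06 and 0.38. Each value sets 1 library over 1 library, so a difference between samples and one between preparations cannot be told apart.

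**Figure D2:**
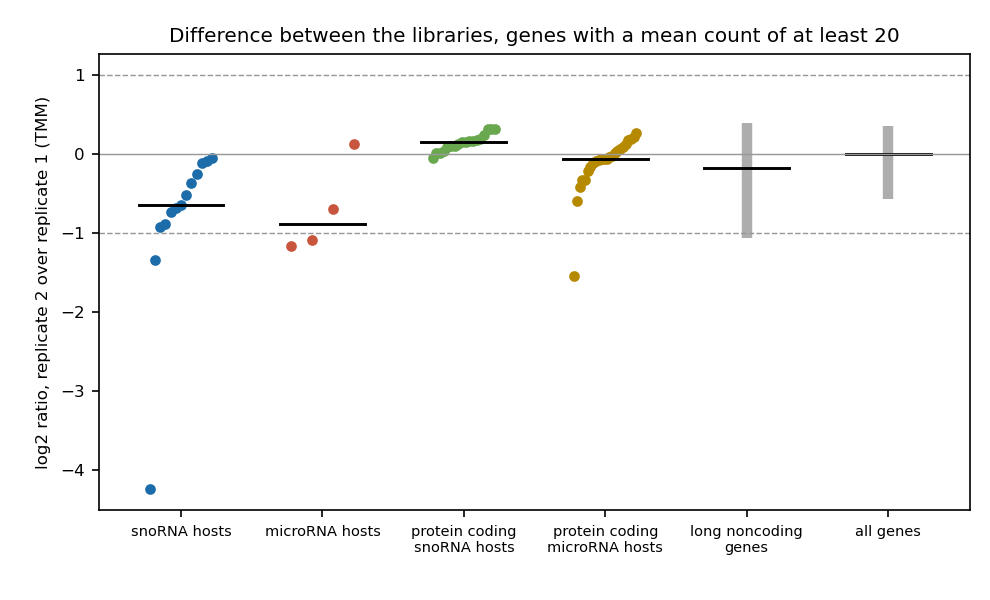
Log2 ratio of replicate 2 over replicate 1 (TMM-scaled) for hosts averaging 20 counts or more and for protein coding hosts; points are genes, black lines are medians, and grey bars span the 10th to 90th percentile. The snoRNA hosts all lie under 0 in these RSEM-format counts (median -0.64), and the protein coding snoRNA hosts centre at 0.15, relative to all genes.

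The ratios differed among members. Snhg3 (-0.05), Snhg6 (-0.09) and Snhg8 (-0.12) were close to equal, followed by Snhg18 (-0.25), Snhg5 (-0.37) and Gas5 (-0.52). Snhg1 (-0.64), Snhg12 (-0.68), Snhg15 (-0.74), Snhg17 (-0.89) and Snhg20 (-0.92) were lower still without reaching 2-fold. Thus Snhg3, Snhg6 and Snhg8 had the smallest differences among the snoRNA hosts in RSEM-format counts, at mean TPM 9.04 to 10.5. Their neighbours in level did not share this: Snhg1, at 12.1 TPM, had -0.64, and Snhg12, at 7.54 TPM, had -0.68.

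The hosts past 2-fold were Snhg11 (-4.24) and Snhg14 (-1.35) among the snoRNA hosts and Mir17hg (-1.16) and Mir99ahg (-1.09) among the microRNA hosts. All 4 were lower in replicate 2, as were 4.47% of all genes and 12.5% of long noncoding genes at that size (4.94% of all genes in either direction). No host was 2-fold higher, where 0.467% of all genes and 1.49% of long noncoding genes were. Snhg11 passed the count filter through replicate 1 alone. In counts from the kallisto-format tables Snhg11 (-1.70), Mir17hg (-1.11) and Mir99ahg (-1.06) stayed past 2-fold, and Snhg14 (-0.68) did not.

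Mir133a-1hg had a ratio of -0.69, while the muscle fibre markers had a median of 0.45, so this muscle microRNA host and the fibre markers differed in opposite directions. Mir22hg was the 1 host above 0, at 0.12, and its direction depended on scaling: it was -0.07 by library totals and -0.22 by spike-in totals. Those scalings moved the median of all genes to -0.20 and -0.35.

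The deposited TPM bounds give another description of the same reads, on a scale where the median log2 ratio of all genes was -0.23. For 8 of the 13 snoRNA hosts and 3 of the 4 microRNA hosts the upper bound in replicate 2 was below the lower bound in replicate 1, against 25.0% of all genes and 25.0% of long noncoding genes. No host had bounds apart in the other direction, as 3.79% of all genes and 1.63% of long noncoding genes did. Snhg11 was among the 8 only by 0.294 against 0.293 TPM. The bounds do not always hold the TPM given beside them. In replicate 2, Snhg1 had TPM 9.08 with bounds of 9.23 to 12.9, and Snhg14 0.520 with 0.712 to 1.68. Mir99ahg had 3.54 there with 3.62 to 5.69. The bounds come from the model within each library, and the spread between animals is not in them.

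In the kallisto-format counts the snoRNA hosts were less uniform. Of 13, 10 were lower in replicate 2, where 50.6% of all genes and 72.8% of 933 long noncoding genes were, and the median was -0.34, while Snhg8 (0.12), Snhg6 (0.23) and Snhg3 (0.10) were above 0. Of 4 microRNA hosts, 3 were lower, with a median of -0.72. The median over long noncoding genes in those tables was -0.39, so the snoRNA hosts there lay at the level of that class.

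Genes that share the hosts' cargo or machinery did not all go the same way. The 18 listed protein coding snoRNA hosts, mainly ribosomal protein and translation factor genes, were all detected at a median TPM of 261, and 1 of 18 was lower in replicate 2, with a median log2 ratio of 0.15. Tpt1, a growth-related protein gene, had TPM 1520 and 1432, and Rpl23a, of the large ribosomal subunit, had 603 and 636. Both stood above every noncoding host in both libraries. Library totals would add about -0.20 and spike-in totals about -0.35 to every ratio, which would put the medians of this list and the next below 0, so their ratios are relative to all genes.

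All 8 listed proteins of the snoRNA particles were detected, led by Nop10 at 26.8 and 28.1 TPM and Nop58 at 26.5 and 23.9; 2 of 8 were lower and the median log2 ratio was 0.17. Of 13 microRNA processing and Argonaute genes, 12 were detected and 8 were lower, with a median of -0.14. Ago2, the Argonaute that can cut its target, led at 47.3 and 40.7 TPM, followed by Tnrc6b at 30.5 and 22.6, and Ago4 stood under the limit at 0.97 and 0.82.

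All 10 nonsense-mediated decay factors were detected and 7 of 10 were lower, with a median of -0.17. A further list named 24 genes as protein coding microRNA hosts, by symbol only and without the place or strand of a microRNA in mouse. All 24 were detected, 15 of 24 were lower and the median was -0.06. Igf2, a fetal growth factor gene, led them at 2933 and 2437 TPM, and Myh7, the slow myosin heavy chain gene that carries a muscle microRNA, stood at 219 and 229. None of these 5 lists had a median as low as that of either host group.

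Transcripts annotated as retaining an intron were a large part of several hosts. Of the detected hosts, 6 have such transcripts, and in the RSEM-format tables their median share of the gene's TPM was 30.9% in replicate 1 and 21.4% in replicate 2. Over all 6978 detected genes with such a transcript the medians were 9.96% and 5.56%. For Gas5, of whose 25 transcripts 20 are annotated so, the share was 38.6% and 29.0%. For Snhg5 it was 44.3% and 24.0%, and for Snhg1 29.8% and 26.1%. Snhg17 had 31.9% and 18.8%, Mir99ahg 18.0% and 15.3%, and Snhg8 7.65% and 6.06%.

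The share was lower in replicate 2 in 6 of 6 hosts, and in both kinds of table. It was also lower there in 78.9% of all genes tested (74.1% in the kallisto-format tables), so that direction was the common one. Over the whole library, retained-intron transcripts held 3.29% of TPM in replicate 1 and 2.73% in replicate 2.

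The 2 kinds of transcript were then read separately, first in the RSEM-format tables. In Gas5, retained-intron transcripts went from 23.7 to 11.4 TPM (log2 ratio of TPM -1.05) and the others from 37.7 to 28.0 (-0.43). In Snhg5 nearly all of the RSEM-format difference was in the retained-intron transcripts, 7.74 and 2.90 TPM (-1.41), with 9.73 and 9.20 TPM (-0.08) in the others. Mir99ahg differed in both kinds, by -1.49 and -1.22. Snhg1 had -0.93 and -0.67, Snhg8 -0.63 and -0.28, and Snhg17 -1.50 and -0.50, each with the retained-intron value first, an order that the lower share fixes.

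The split depended on the table. In the kallisto-format tables the retained-intron transcripts of Snhg5 had 17.9 and 10.5 TPM (-0.77) and the others 24.9 and 19.6 (-0.34), so both kinds differed there. In Snhg8 the other transcripts were higher in replicate 2 in those tables, at 5.38 and 9.34 TPM (0.80). Gas5 had -0.82 for retained-intron transcripts and -0.50 for the others, close to its RSEM-format values.

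**Figure D3:**
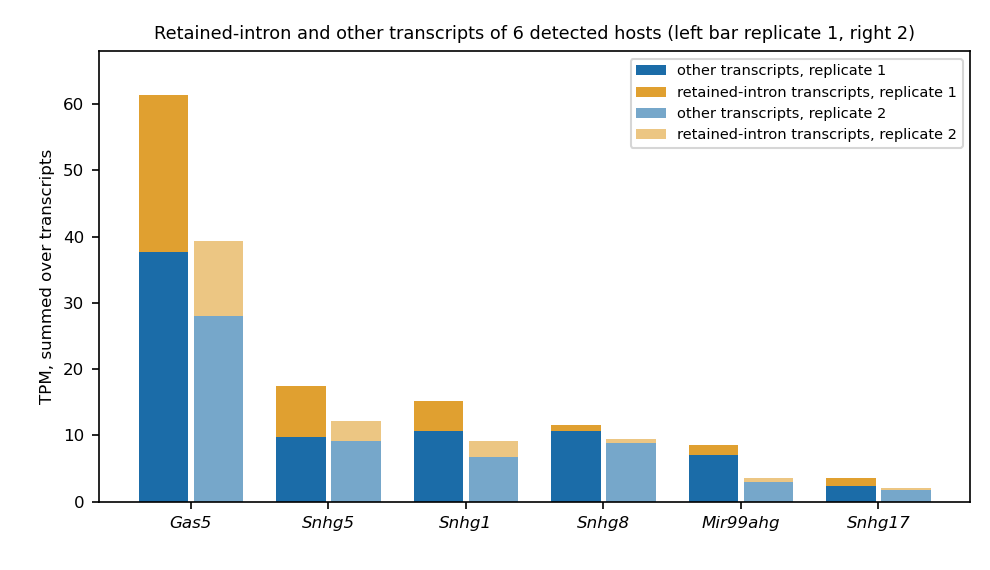
RSEM-format TPM of 6 detected hosts summed over transcripts annotated as retained intron (orange) and over their other transcripts (blue), with replicate 1 as the left bar and replicate 2 as the right. The orange part shrinks from 23.7 to 11.4 TPM in Gas5 and from 7.74 to 2.90 in Snhg5, whose blue part is nearly equal at 9.73 and 9.20 in these tables (24.9 and 19.6 in the kallisto-format ones).

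The 2 kinds of table disagreed on the level of some hosts and on which transcript led. Over the 14 detected members the median log2 ratio of kallisto-format over RSEM-format TPM was 0.64, near the 0.53 of all detected genes. Snhg20 was the 1 detected member past 4-fold, at 43.3 against 5.17 mean TPM (log2 ratio 3.06), a size reached upward by 0.494% of detected genes and downward by 3.39%. Its transcript Snhg20-201, of 459 bases, held 76.4% and 83.6% of the gene in the kallisto-format tables, while Snhg20-202, of 600 bases, held 88.0% and 91.9% in the RSEM-format tables. By level, Snhg20 was thus the eighth snoRNA host in 1 kind of table and the second in the other.

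Snhg14 differed in the same way, with a mean TPM of 1.35 against 10.1, and Snhg14-201 led in the kallisto-format tables where Snhg14-209 led in the RSEM-format ones. For Gas5 the RSEM-format tables gave most to Gas5-210 (36.5% and 46.9%) and the kallisto-format tables to Gas5-203 (37.1% and 35.0%), both annotated as spliced. For Snhg1 the leading transcript changed in kind, from Snhg1-211 (70.3% and 67.5%) to the retained-intron transcript Snhg1-213 (50.2% and 35.5%). Its retained-intron share was therefore 67.3% and 66.3% in the kallisto-format tables.

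Mir133a-1hg was the exception in direction among the higher hosts. It has 1 annotated transcript, of 395 bases, and it had 295 and 177 counts in the RSEM-format tables but 47 and 34 in the kallisto-format ones, with a mean TPM of 27.0 against 16.1. Mir22hg kept Mir22hg-202 as its leading transcript in both, at a mean TPM of 30.1 against 48.7. In the kallisto-format tables Mir22hg was therefore above Mir133a-1hg in both libraries (52.8 and 44.6 TPM against 19.4 and 12.9).

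**Figure D4:**
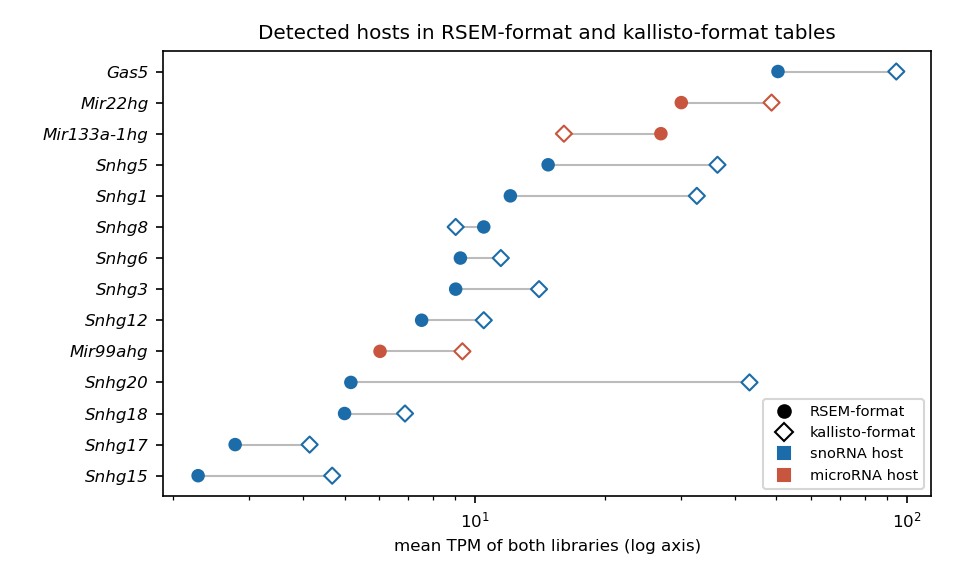
Mean TPM of both libraries (log axis) for the 14 detected hosts in the RSEM-format tables (circles) and the kallisto-format tables (open diamonds). Snhg20 has the widest gap, 5.17 to 43.3 TPM, and Mir133a-1hg and Snhg8 are the 2 hosts lower in the kallisto-format tables.

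The small RNAs inside the hosts were counted as genes of their own, and their counts followed annotated length. On the hosts' own strand lie 270 annotated snoRNA, scaRNA and microRNA genes. None of the 248 under 100 bases, and none of 6 from 100 to 119 bases, had a count in either library, whereas 13 of 16 of at least 120 bases did, a limit set after the counts were seen. Any expected count above 0 in either library was taken, and some were very small. Snora24 had 0.950 and 0, Gm24411 had 0 and 0.760, and an entry of Snora16a had 0 and 1.14. Over all annotated genes of these classes the shares with a count were 0% of 1840, 3.59% of 640 and 16.2% of 1285. A 0 for a box C/D snoRNA or a microRNA hairpin in these tables is thus a 0 shared by every gene of these classes under 100 bases.

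**Figure D5:**
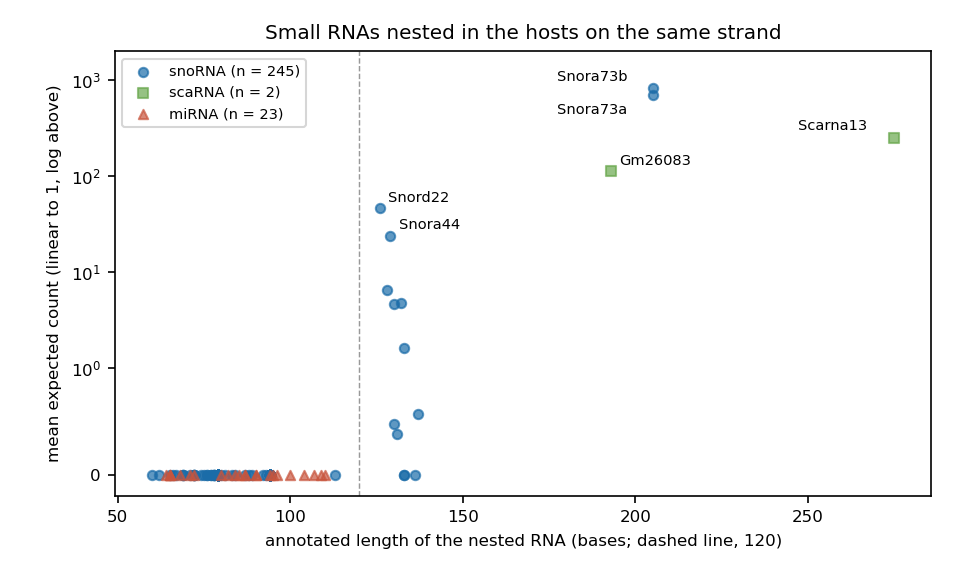
Mean expected count (linear to 1, log above) against annotated length for 270 small RNA genes nested in the hosts on the same strand; the dashed line is 120 bases. All points left of the line are at 0, and the highest are the 205-base Snora73a and Snora73b.

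The highest nested RNAs were the pair of U17 snoRNAs within Snhg3, and their sequences are shown because they are nearly the same. The sequences are those of GENCODE M21, on the minus strand of GRCm38 at chr4:132352775-132352979 and chr4:132352322-132352526, with the ACA box near the 3′ end in capitals.
Snora73a: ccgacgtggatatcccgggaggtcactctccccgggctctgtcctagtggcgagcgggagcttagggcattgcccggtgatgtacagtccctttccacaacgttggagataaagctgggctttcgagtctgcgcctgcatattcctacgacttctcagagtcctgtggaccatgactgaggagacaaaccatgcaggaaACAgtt
Snora73b: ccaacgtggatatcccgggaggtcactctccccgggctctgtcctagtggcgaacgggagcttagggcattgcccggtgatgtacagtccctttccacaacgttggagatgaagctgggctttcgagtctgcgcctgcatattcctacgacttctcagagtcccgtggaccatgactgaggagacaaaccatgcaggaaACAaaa
They are identical at 198 of 205 bases and differ at 7, so the division of reads between them is uncertain. Snora73a also overlaps an exon of an annotated Snhg3 transcript, so its division of reads with the host is uncertain too. Snora73b had 871 and 801 counts and Snora73a had 775 and 624, where their host Snhg3 had 102 and 95.2. The nested RNAs thus had several times the counts of the host transcript around them.

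Other nested RNAs with counts were fewer. Scarna13, of 275 bases in Snhg10, had 272 and 224 counts, and the scaRNA Gm26083, of 193 bases in Snhg20, had 118 and 109. In the RSEM-format tables Scarna13 exceeded its host Snhg10 in both libraries (19 and 9 counts). Gm26083 was below Snhg20 there in replicate 1 (129 counts) and above it in replicate 2 (65.9). In kallisto-format counts Snhg20 had 241 and 179. Snord22, the U22 snoRNA of Snhg1, is 126 bases long, the shortest nested RNA with a count, and had 61.6 and 31.4. Snora44 in Snhg12 had 29.5 and 18.3 counts.

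The 4 highest of these, Snora73a, Snora73b, Scarna13 and Gm26083, had TPM in replicate 2 of 184, 235, 39.7 and 36.2, against 259, 291, 54.8 and 44.5 in replicate 1. In TMM-scaled RSEM-format counts Gm26083 had a log2 ratio of -0.07 where its host Snhg20 had -0.92. Scarna13 had -0.24 where Snhg10 had -1.0 on a mean count of 14. These gaps depended on the format: in kallisto-format counts Snhg20 had -0.34, and Snhg10 had -0.26 on 9 and 7 counts. Gm26083 overlaps an exon of an annotated Snhg20 transcript, so the division of reads between them is uncertain. Snord22 (-0.92) and Snora44 (-0.63) differed by amounts nearer to those of their hosts Snhg1 (-0.64) and Snhg12 (-0.68). Snord22 and Snora44 also overlap an exon of an annotated transcript of their host, so the same limit on the division of reads holds. In the kallisto-format tables all of these small RNAs were at 0. An ACA box 3 bases from the 3′ end, the mark of the H/ACA class, was present in 10 of the 16 nested RNAs of at least 120 bases and in 9 of the 13 with a count.

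Position inside the host was also read. None of the small RNAs nested in a snoRNA host lay in an exon of its leading RSEM-format transcript. The same held for 6 of the 10 microRNA hosts, Mir133a-1hg and Mir99ahg among them. In the other 4 a microRNA lay in an exon of it: all 6 of Mir17hg, the single ones of Mir22hg and Mir155hg, and 1 of 3 in Mir670hg. All 10 annotated snoRNA genes of Gas5 and all 8 of Snhg1 did lie in an exon of some other annotated transcript of the host.

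Many snoRNA hosts are known as genes with a 5′ terminal pyrimidine tract, the start that ribosomal protein messenger RNAs share. The tract was searched on the transcript's strand as a C followed by at least 4 bases that are each C or T, within 5 bases of the RefSeq start. It was present in 7 of 15 snoRNA hosts with a RefSeq promoter (46.7%) and 2 of 6 microRNA hosts (33.3%). The share was 44.7% of 76 genes whose symbols begin with Rpl or Rps and a number, and 21.2% of all 27025 genes. Symbols of S6 kinase genes also meet that pattern, so the 76 may not all be ribosomal protein genes. Counted over promoters, the shares were 36.8% of 19, 20% of 10, 39.6% of 91 and 18.3% of 32851. A match of these letters is a description and not a mapped start.

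The starts of the 5 detected snoRNA hosts with the tract are shown so that they can be compared. Each has 10 bases before the RefSeq start and the matched stretch in capitals (GRCm38.p6, 5′ to 3′ on the gene's strand).
Gas5: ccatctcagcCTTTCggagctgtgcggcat
Snhg8: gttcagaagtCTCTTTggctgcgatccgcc
Snhg12: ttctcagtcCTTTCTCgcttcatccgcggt
Snhg3: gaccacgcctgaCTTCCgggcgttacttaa
Snhg18: cccaggcccCTCCTCTagccccgcctcttc
They lie at chr1:161035156-161035185 (plus), chr3:123508317-123508346 (minus), chr4:132308668-132308697 (plus), chr4:132353667-132353696 (minus) and chr15:32244643-32244672 (minus). The first C in capitals stands at the start itself in Gas5 and Snhg8, 1 base before it in Snhg12 and Snhg18, and 2 bases after it in Snhg3. That C is the matching one nearest the start. In Gas5, Snhg8, Snhg12 and Snhg18 the base before it is also C or T, so the run of pyrimidines begins earlier. The log2 ratios of these 5 hosts between the libraries were -0.05 in Snhg3, -0.12 in Snhg8, -0.25 in Snhg18, -0.52 in Gas5 and -0.68 in Snhg12. Hosts with and without the tract were not compared.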

How the data were processed

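Total RNA-seq of 2 libraries of 1 group was used. Builds were mm10 with GENCODE M21, per the text deposited with the files; the aligner, counter and versions are not given in the sources used, and tables are named by format. Per the file headers, the authors' deposited gene and transcript tables hold expected counts (estimated counts in the kallisto-format tables), with ambiguous reads divided by a model, TPM with spike-ins included, TPM bounds of unstated level, and the percent of a gene's TPM held by each transcript. Rows that name no gene held 0.000139% and 7.51e-06% of counts; they and the spike-ins stayed out of all values except the spike-in scaling. The members, lists and rules were chosen with earlier results of these data known.

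Expected counts were rounded, scaled by TMM in edgeR 4.0.16 (R 4.3.3) and expressed as log2 ratios with a prior count of 0.5, for genes averaging 20 counts or more. Kallisto-format values were summed per gene, and log2 ratios between formats used TPM plus 0.01. Library totals were 35925081 and 39969380, and intervals from counts cover counting error only. The ratio script was tested on simulated data. Symbols, classes and coordinates came from GENCODE M21, microRNA and promoter sequences from RefSeq (GRCm38.p6; 21 members matched a promoter). Python 3.11.15, pandas 2.3.3 and numpy 2.4.6 were used, with scipy 1.17.1. DESeq2 1.42.0 size factors, library and spike-in totals, count and TPM limits, pseudocounts, the kallisto-format values and each library alone were alternatives.

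Named were members with mean TPM of at least 1, muscle microRNA hosts, members past 2-fold at the count limit, detected members past 4-fold between formats, members at 0, and the 2 highest genes of each list with any under TPM 1; of the cell marker lists, sums are given. Genes of the nonsense-mediated decay list are not reported here singly. Snhg9, Snhg7os, the low microRNA hosts, Gm28653, the nested RNAs, overlapping genes and the hosts found by synonym were named after their values were seen.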

Additional observations from a re-analysis of the deposited data

How the results depend on the processing

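With 1 group of 2 libraries nothing here was tested, and depth limits what can be said of the 9 hosts with under 20 counts on average. Of 53 alternatives to the group results, 41 were labelled the same. That label meant within 1.5-fold for a number of hosts and within 1 SD of the 2 libraries for a level. For a median ratio between libraries the limit was wide, its own size divided by the square root of 2. A median of -0.34 in kallisto-format counts thus passed as the same as -0.64 for the snoRNA hosts. For a TPM share, leaving 1 library out could give no other label. The share of gene TPM held by the snoRNA hosts, 0.0134%, was 0.0285% in the kallisto-format tables, 0.00722% in counts and 0.0289% over nuclear protein coding genes, whose smaller total raises any share; over those the microRNA hosts held 0.0141%. The number of snoRNA hosts differing 2-fold or more, 2, was 4 by library totals, 6 by spike-in totals, 0 at a mean count of at least 100, 1 in kallisto-format counts and 7 at a 1.5-fold limit. For the microRNA hosts, 2 became 7 at a mean count of at least 1 and 1 at 100. The log2 ratio of median TPM, snoRNA over microRNA hosts, was 3.92 over all members and -1.58 over detected members, since that filter removed 7 of 10 microRNA hosts. With 1 library left out, 12 to 13 snoRNA hosts and 3 microRNA hosts were detected, and that log2 ratio was 3.68 to 4.41. Of 18 named members, 12 had a mean TPM that moved by more than 1 SD in the kallisto-format tables. Apart from the smaller totals and sets named here, the cause was not tested. No paired analysis was possible because the series holds 1 group.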
